A study of Homo sapiens with 105 samples.

Results

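The replication-dependent histone genes of Caco-2 cells were followed across all treatments and times of the study. Members were taken from the gene symbols alone: every gene whose symbol starts with H2AC, H2BC, H3C or H4C followed by a number, and the linker histone genes H1-1 to H1-5, without pseudogenes. This gave 69 of the 63241 genes in the count table, namely 5 H1, 17 H2A, 19 H2B, 13 H3 and 15 H4 genes. Of these, 51 passed the filter on low counts and entered the tests (4 H1, 14 H2A, 16 H2B, 8 H3 and 9 H4 genes), among 18775 tested genes in all. On GRCh38, 54 members lie on chromosome 6 between positions 25723397 and 27893891, 13 lie on chromosome 1, and H4C16 on chromosome 12 and H2BC12L on chromosome 21 lie alone.

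Histones package DNA. The core histones H2A, H2B, H3 and H4 form the protein core of the nucleosome, and H1 binds the linker DNA between nucleosomes. Most histone protein of dividing cells comes from many small, mostly intronless gene copies that are transcribed while DNA is replicated. Their mRNAs carry no poly(A) tail, and end instead in a short stem-loop that the stem-loop binding protein (SLBP) recognises for processing, translation and decay. The RNA of this study was depleted of ribosomal RNA and not selected for poly(A), so that mRNAs ending in a stem-loop could enter the libraries.

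Caco-2 is a cell line from a human colon adenocarcinoma, and all groups are cultures of this line, treated 24 h after seeding. Cells were incubated with membrane vesicles of *Lacticaseibacillus casei* (LcMV) or *Enterococcus faecalis* (EfMV), with outer membrane vesicles of *Proteus mirabilis* (PmOMV) or with lipopolysaccharide of *P. mirabilis* in the medium (LPSinc), against PBS. Other cells were transfected with vesicle RNA of *L. casei* (LcRNA, 100 ng), *E. faecalis* (EfRNA, 5 ng) or *P. mirabilis* (PmRNA, 2 ng) or with lipopolysaccharide (LPStrans), against a control siRNA at 100, 5 or 2 ng (ANC100, ANC5, ANC2). All 12 treatments were sampled at 10 h and 24 h, and LcMV, LcRNA, ANC100 and PBS also at 48 h. The comparisons asked whether the members responded to vesicles, vesicle RNA or lipopolysaccharide, and how they moved over time and between replicates.

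Besides 66 libraries used in the main reading, 39 came from lanes 2 to 4 of flow cell 1. Only 12 of these 39 lay nearest to libraries of their labelled time, against all of the other 66. The genes used were those most variable among the 66, and the means compared with came from the 66 alone. Each of the 66 was left out of its own mean, but the 2 counts are not on an equal footing. The lanes were therefore set aside, which left 28 groups (20 of 2, 6 of 3 and 2 of 4), and results with the libraries of every lane are given where they differ. Total counts of the 66 libraries ran from 632659 to 8558755 (median 5563438), with 5 libraries under 2000000, and the members took 3587 to 49372 counts per library. Levels are given as CPM, counts per 1000000 of the scaled library size. The 9 colon epithelial markers summed to 7240 to 8640 CPM at 10 h, 6120 to 7860 CPM at 24 h and 3880 to 5810 CPM at 48 h, with KRT8 (mean 3240 CPM) as the highest of them, while LGALS4 (0.941 CPM) and KRT20 (3.14 CPM) were near 0. The 14 markers of immune, stromal and endothelial cells summed to 53.4 to 281 CPM at 10 h, 67.4 to 309 CPM at 24 h and 86.1 to 251 CPM at 48 h. None of the 14 was at 0 in every library, LYZ (89.4 CPM), COL1A1 (35.6 CPM) and PDGFRA (21.6 CPM) were the highest, and PTPRC, HBB and COL1A2 had a count in 1 or 2 libraries. The labels give replicate numbers and do not place replicates in separate cultures, so the tests reflect only how far these libraries spread, which may be technical.

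The stem-loop is shown because it sets these mRNAs apart from other mRNAs, and because its letters differ between classes. The pattern GGNNNTNNNNANNNCC with pairing arms was searched within 120 bases after the stop codon of the coding sequence. It was present in 66 of 69 members (95.7%), against 80 of 19950 protein-coding genes (0.401%), members included. H2AC11, H2AC15 and H2BC12L had no match in this window. The form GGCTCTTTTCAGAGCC occurred in 40 members of the H1, H2A, H2B and H3 classes. The form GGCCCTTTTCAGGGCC occurred in 10 members, all of them H4 genes, and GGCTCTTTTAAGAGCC in 8. Capitals mark the 16 bases of the stem-loop, and each stretch is read on the strand of its gene on GRCh38.
H1-4 (chr6:26157090-26157115, plus strand): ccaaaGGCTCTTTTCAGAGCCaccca
H4C5 (chr6:26204996-26205021, plus strand): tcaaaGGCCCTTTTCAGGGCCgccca
H2BC12 (chr6:27146361-27146386, minus strand): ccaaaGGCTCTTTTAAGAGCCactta
H3C13 (chr1:149813223-149813248, minus strand): ctaaaGGCTCTTTTCAGAGCCactgc
H2BC26 (chr1:228458533-228458558, plus strand): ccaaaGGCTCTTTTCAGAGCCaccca
H2AC25 (chr1:228457364-228457389, minus strand): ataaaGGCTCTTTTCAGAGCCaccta

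Promoters were taken from RefSeq (GRCh38.p14; 250 bases before to 50 bases after the start), which matched 63 members with 67 entries. The octamer ATTTGCAT, searched on both strands, was present in 27 of the 67 (40.3%), against 1.77% of 35116 promoters of all genes. It was found in 11 of 16 H2A and 15 of 20 H2B promoters, in 1 of 13 H3 promoters, and in no H1 or H4 promoter. The letters TATAAA were present in 45 of 67 (67.2%, against 11.5% of all promoters), and CCAAT in 57 of 67 (85.1%, against 34.6%). H4 promoters had CCAAT in 3 of 13, and those of the other 4 classes in every entry. A match is a description of the letters and not a binding site. Both printed stretches are 160 bases long, read on the strand of the gene, with the 3 motifs in capitals on either strand. H2BC12 is shown as a highly expressed member on chromosome 6, and H2BC26 as the member with the steepest change over time.
H2BC12 (chr6:27146849-27147008, minus strand): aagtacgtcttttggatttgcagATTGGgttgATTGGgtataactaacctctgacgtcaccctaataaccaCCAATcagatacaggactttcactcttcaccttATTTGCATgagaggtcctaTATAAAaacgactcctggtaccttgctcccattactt
H2BC26 (chr1:228457953-228458112, plus strand): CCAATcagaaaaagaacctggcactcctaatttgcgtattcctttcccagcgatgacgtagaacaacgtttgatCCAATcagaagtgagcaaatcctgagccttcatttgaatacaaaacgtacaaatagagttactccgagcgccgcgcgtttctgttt
The H2BC26 entry held CCAAT and neither of the other 2 motifs. Its neighbour H2AC25 starts 230 bases away on the opposite strand, so that the 2 genes share this stretch.

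Expression was spread unevenly over the copies. Per kilobase of annotated exon, which is the scale used to compare genes, the highest members over the 66 libraries were H3C2 (547 CPM per kb), H1-4 (514), H1-2 (427), H1-5 (400), H2BC12 (387), H4C5 (368) and H2AC11 (367). H3C2 (chr6:26031589-26032099) encodes a canonical H3, and H1-4 (chr6:26156329-26157115) a linker histone. The lowest tested members on this scale were H2AC18 (2.34 CPM per kb), H3C14 (2.96), H2BC26 (4.11) and H3C6 (5.99). The 18 members that did not pass the filter were at most 1.97 CPM per kb. They were H1-1, H2AC1, H2AC7, H2AC17, H2BC1, H2BC3, H2BC12L, H3C1, H3C3, H3C4, H3C11, H3C15, H4C6, H4C7, H4C9, H4C13, H4C14 and H4C15. H4C13 had 2 counts in all 66 libraries together, H4C7 had 6, H2BC1, the testis-type H2B, had 11, and H3C11 had 12. All members but H4C13 thus had more than 3 counts over the libraries, and 53 to 66 members had a count in any given library.

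Some of these levels cannot be read as the output of 1 gene. Reads that match several places were not counted, and H2AC18, H2AC19, H3C14, H3C15, H4C14, H4C15 and H2BC12L have no 100-base window that is unique in the genome. The share of unique windows was 8.7% for H4C12, 9.3% for H4C11, 38.2% for H2AC14, 41.2% for H2AC13, 49.7% for H2BC18 and 53.5% for H3C13. A gene of the same strand covers 85.3% of H2AC7, 96.6% of H3C4 and 71% of H2AC17, and reads that overlap 2 genes were not assigned. Exon length matters as well, since H2BC26 is annotated with exons well beyond the coding sequence, which lowers its level per kilobase.

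**Figure D1:**
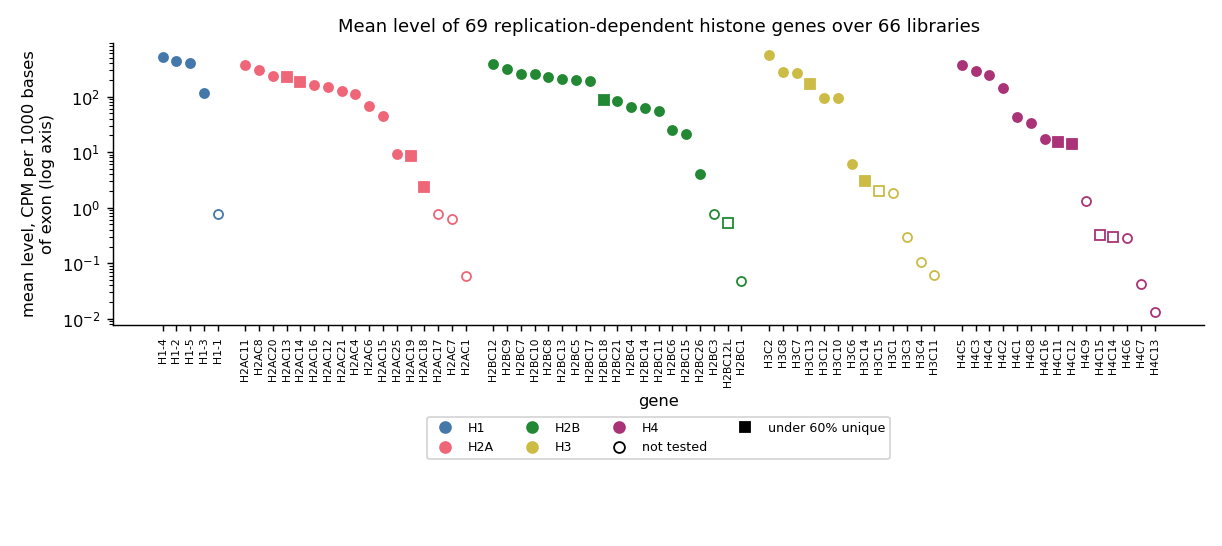
Mean level per kilobase of annotated exon (CPM per kb, log axis) of the members over 66 libraries, by histone class (colours), with squares for under 60% of unique windows and open symbols for members not tested. H3C2 (547) and H1-4 (514) lie highest, and the members not tested lie at or under 1.97.

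Summed over the 69 members, histone mRNA made up a similar share of the library at 10 h and 24 h and a smaller one at 48 h. The sum was 5020, 5588 and 6675 CPM (lowest, median and highest of 32 libraries) at 10 h, 4878, 5420 and 6363 CPM at 24 h (26 libraries) and 4052, 4521 and 4935 CPM at 48 h (8 libraries). Means were 5630 ± 405, 5470 ± 409 and 4490 ± 291 CPM (SD). In the same 4 treatments at 24 h the sum ran from 5026 to 5989 CPM (median 5223, 9 libraries), so that every library of 48 h lay below every such library of 24 h. Most of these libraries of 48 h were sequenced in other lanes than most of those of 24 h. LcMV and ANC100 shared no lane between these times, so that time and lane largely went together. By library, the sum at 48 h was 4935 and 4493 CPM in LcMV, 4250 and 4621 CPM in LcRNA, 4549 and 4773 CPM in ANC100 and 4279 and 4052 CPM in PBS. In bulk RNA, fewer cells in the phase of DNA replication and less histone mRNA per cell cannot be told apart.

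The lanes set aside did not show this difference in their means. With the libraries of every lane scaled together, the libraries labelled 48 h averaged 5260 ± 682 CPM in the lanes set aside (range 3786 to 5993, n = 8) and 4470 ± 292 CPM in the other lanes (n = 8). At 24 h the mean was 5220 CPM in the lanes set aside and 5430 CPM in the other lanes, and at 10 h it was 5550 CPM in the lanes set aside and 5570 CPM in the other lanes. Among the libraries labelled 48 h in the lanes set aside, LcRNA replicate 4 had 3786 CPM, below the other lanes at 48 h (4034 to 4902 CPM). The remaining ones had 5016 to 5993 CPM. These values lay within the ranges of the other lanes at 10 h (4959 to 6601 CPM) and 24 h (4824 to 6327 CPM).

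**Figure D2:**
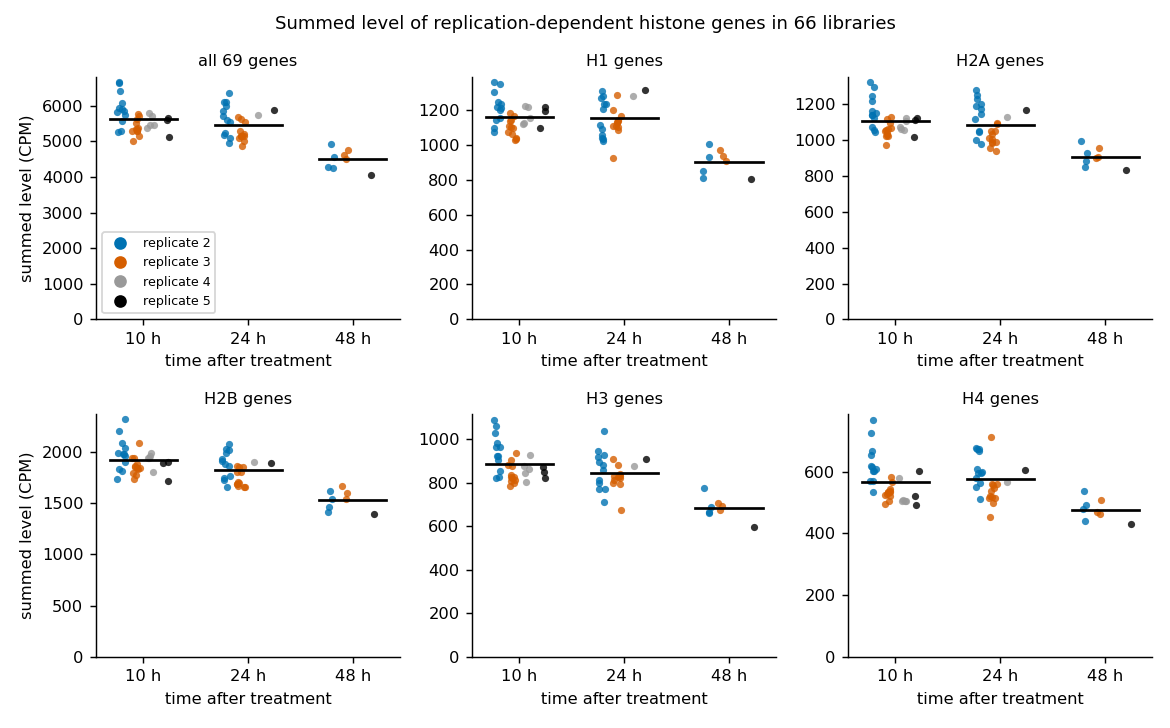
Summed level (CPM) of all members and of each histone class in each of the 66 libraries, by time after treatment, coloured by replicate number, with lines at the means. Over all members, the 8 libraries at 48 h (4052 to 4935) lie below the 9 libraries at 24 h of the same treatments (5026 to 5989).

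Between 48 h and 24 h, members fell in every class and none rose. In the mean over LcMV, LcRNA, ANC100 and PBS, 39 of 51 members fell (76.5%) and 0 rose by edgeR, where 43.5% of all genes passed (23.2% lower and 20.3% higher). By DESeq2 36 members fell and 0 rose, and at an unadjusted p under 0.05 it was 42 members by edgeR. The median log2 fold change of the members was -0.28, against 0.005 over all tested genes. By class, 3 of 4 H1 genes fell (median -0.31), 11 of 14 H2A (-0.27), 13 of 16 H2B (-0.23), 5 of 8 H3 (-0.30) and 7 of 9 H4 genes (-0.35). With the libraries of every lane and no block only 1 member passed, with a median of -0.14, and 476 genes in place of 8162 passed. Leaving out any 1 of the 17 libraries gave 35 to 42 members.

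H1-4, the linker histone gene with the highest level per kilobase here, had 265, 323 and 337 CPM at 48 h (lowest, median and highest of 8 libraries) against 390, 428 and 465 CPM at 24 h (9 libraries). The ranges did not overlap, and the gene fell by 0.46 ± 0.04 on the log2 scale (SE, adjusted p = 2.81e-13). H1-5 (chr6:27866792-27867588), another linker histone gene, had 205, 225 and 261 CPM at 48 h against 292, 325 and 366 CPM at 24 h. It also had no overlap and fell by 0.48 ± 0.06 (adjusted p = 1.19e-09). H1-2 fell by 0.15 and H1-3 (log2 -0.14, adjusted p = 0.0986) did not pass.

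H2BC12, whose octamer promoter is printed above, had 133, 155 and 161 CPM at 48 h against 172, 200 and 230 CPM at 24 h. It fell by 0.36 ± 0.05 with no overlap of the libraries. H2BC14 (chr6:27815022-27815489), a less expressed H2B gene, had 14.4, 18.1 and 22.9 CPM at 48 h against 23.3, 27.2 and 32.6 CPM at 24 h, and fell by 0.58 ± 0.07. Its highest library at 48 h was just under its lowest at 24 h. H2BC26 (chr1:228458103-228463104) had 8.3, 11.1 and 20.2 CPM at 48 h against 14.1, 19.8 and 27.8 CPM at 24 h. Its log2 fold change of -0.70 ± 0.09 was the lowest of the members, although the libraries overlapped. H2BC9 (chr6:26251614-26252075) had 128, 147 and 162 CPM at 48 h against 134, 141 and 174 CPM at 24 h, with a log2 fold change of 0.00 (95% interval -0.10 to 0.09).

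Among the H3 genes, H3C13 (log2 -0.50), H3C12 (-0.43), H3C10 (-0.33), H3C2 (-0.28) and H3C8 (-0.21) fell. H3C2 had 210, 229 and 265 CPM at 48 h against 227, 276 and 314 CPM at 24 h, so that its libraries overlapped. H3C6 had a log2 fold change of 0.06 (95% interval -0.11 to 0.24). Among the H4 genes, H4C16 on chromosome 12 and H4C4 fell by 0.39, and H4C5 by 0.20, at 114, 134 and 148 CPM at 48 h against 131, 156 and 174 CPM at 24 h. H4C11 (log2 0.01 ± 0.14), with few unique windows, was estimated with a wide error. Of the H2A genes, H2AC4 fell by 0.45, H2AC15 by 0.43 and H2AC12 by 0.42, while H2AC20 (-0.05), H2AC19 (-0.07) and H2AC18 (-0.28) did not pass.

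The libraries of 48 h all lay below those of 24 h for 11 members: H1-4, H1-5, H2AC4, H2AC12, H2AC14, H2AC16, H2BC7, H2BC10, H2BC12, H2BC14 and H3C12. Over all genes this held for 3.57%, and 2.22% of genes lay entirely higher. All 11 are on chromosome 6. Members with over 1000 bases of exon (10 of 13 fell, median -0.27) and shorter ones (29 of 38, -0.28) gave similar counts, as did members with the stem-loop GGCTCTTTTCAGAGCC (23 of 30, -0.28) and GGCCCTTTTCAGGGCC (6 of 8, -0.31). Of the 9 tested members with under 60% of unique windows, 5 fell. Other genes within 1000000 bases of the members on chromosome 6 had a median of 0.09, with 10 higher and 6 lower of 46.

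**Figure D3:**
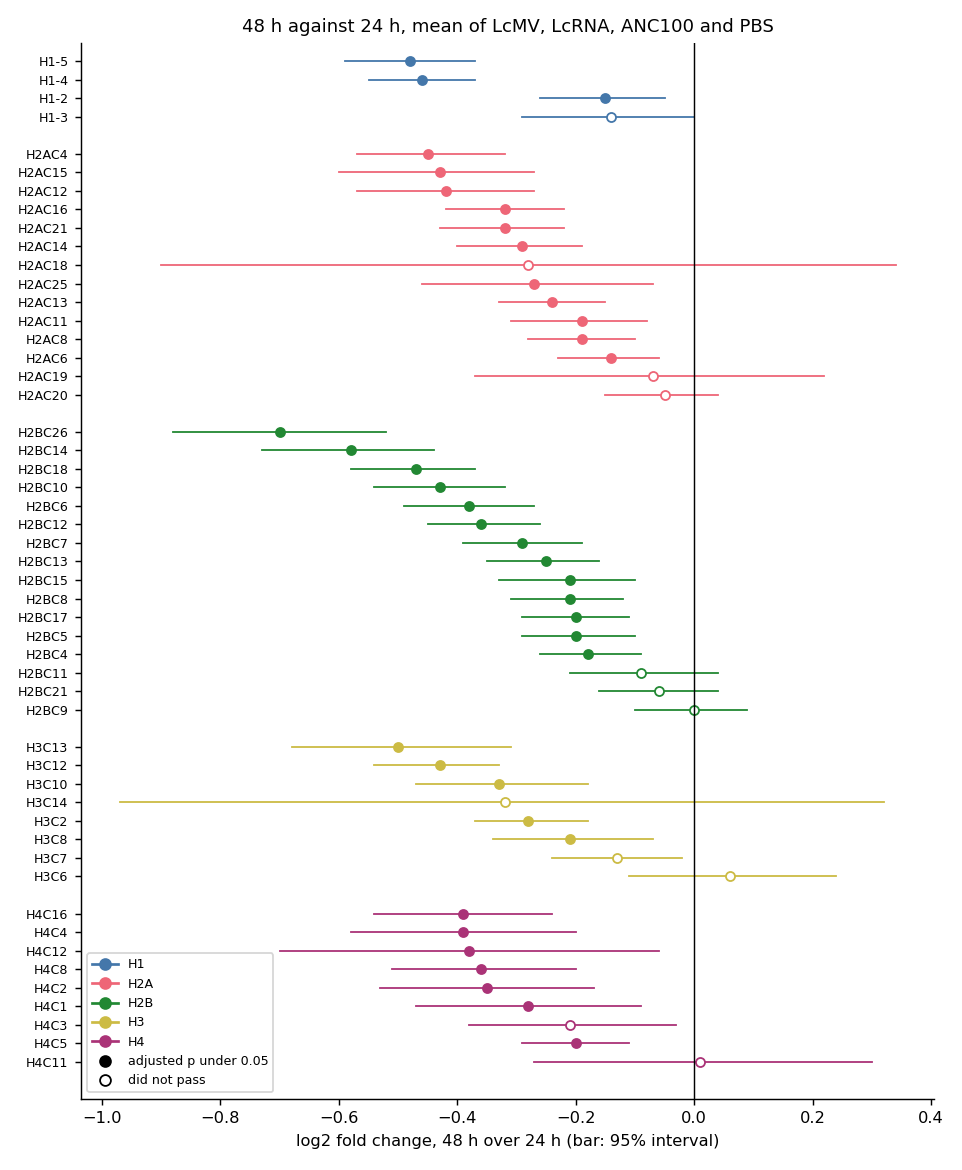
Log2 fold change of the 51 tested members at 48 h over 24 h, in the mean of LcMV, LcRNA, ANC100 and PBS, with 95% intervals from edgeR, and filled points where the adjusted p was under 0.05. All 39 filled points lie below 0, from H2BC26 (-0.70) to H2AC6 (-0.14).

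Each of the 4 treatments moved in this direction, to different extents. Apart from that in PBS, the comparisons within a treatment were chosen with the data already known. In PBS 38 of 51 members fell and 0 rose (median -0.46), where 17.8% of all genes passed and 10.7% fell. In LcRNA 16 fell (median -0.27), where 16.7% of all genes passed and 9.42% fell. In ANC100 it was 13 (-0.23), where 15.3% of all genes passed and 8.34% fell. In LcMV it was 10 (-0.13), where 16.8% of all genes passed and 9.59% fell. No member rose in any of these. In the mean without PBS 30 members fell (37.5% of all genes passed and 20% fell), so that the fall was also present without PBS. H1-4 had 265 and 273 CPM in PBS at 48 h against 428 and 438 CPM in PBS at 24 h, a log2 fold change of -0.73 ± 0.10 (edgeR, adjusted p = 6.43e-08). H2BC26 had 8.87 and 8.3 CPM in PBS at 48 h against 18.9 and 27.8 CPM in PBS at 24 h (-1.09 ± 0.20). The PBS count was 24 without PBS_48h replicate 2, 22 without a replicate block, and 0 with the libraries of every lane.

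The difference in the change over time was itself tested. Between LcMV and PBS it had a median of 0.34 on the log2 scale over the members and passed for 0 of 51 members, where 0.0213% of all genes passed. At an unadjusted p under 0.05 it was 28 of 51 members (54.9%), against 7.37% of all genes. Between ANC100 and PBS the median was 0.25, 0 members passed, and 16 had an unadjusted p under 0.05 (31.4%, against 5.88% of all genes). Between LcMV and ANC100 the median was 0.06, 0 passed and 4 had an unadjusted p under 0.05. These contrasts were computed with edgeR alone, and PBS at 48 h entered as replicates 2 and 5, the other 3 groups as replicates 2 and 3. The members were measured in the same few libraries and are not independent, so their unadjusted shares do not test them as a set.

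The corresponding comparison at 48 h was that of LcMV with PBS, in which 2 of 51 members rose and 0 fell, where 2.75% of all genes passed (1.61% higher and 1.15% lower). H2AC8 (chr6:26216921-26217437), an H2A gene, had 155 and 146 CPM in LcMV against 126 and 115 CPM in PBS (log2 0.38 ± 0.10, adjusted p = 0.0134 by edgeR). H1-4 had 337 and 320 CPM in LcMV against 265 and 273 CPM in PBS (0.32 ± 0.10, adjusted p = 0.0467). Both LcMV libraries lay above both PBS libraries for both genes. With 2 libraries in each group and genes picked by the test, this separation adds no support. The count was 2 by DESeq2, 1 without LcMV_48h replicate 2, 0 without any of the other 3 libraries, 0 without a replicate block or with the block fitted within each time, and 0 with the libraries of every lane. Against ANC100 and against LcRNA at 48 h, comparisons also chosen late, LcMV had 0 members past the test, where 0.0213% and 0.016% of all genes passed. At an unadjusted p under 0.05 it was 2 members in each.

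In the treatments at 10 h and 24 h the members gave few or no calls. PmOMV against LPSinc at 10 h had 1 member higher (3.18% of all genes passed), H2AC16 (chr6:27865317-27865798), an H2A gene. H2AC16 had 91.2, 95.4 and 93.9 CPM in PmOMV against 81.6 and 71.6 CPM in LPSinc, a log2 fold change of 0.28 ± 0.09 (edgeR, adjusted p = 0.0495). Its libraries did not overlap, and leaving out any of the 5 libraries gave 0 members. The count was 5 with the replicate block fitted within each time, and 0 with RLE or total-count scaling or without the block. With so few libraries and a gene picked by the test, the lack of overlap adds no support.

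The other comparisons between treatments of the same time gave 0 members past the edgeR test and 0 by DESeq2. They were LcMV, EfMV, PmOMV and LPSinc against PBS, the mean of ANC100, ANC5 and ANC2 against PBS, LcRNA, EfRNA, PmRNA and LPStrans against siRNA, and PmRNA against LPStrans, at 10 h and 24 h, together with PmOMV against LPSinc at 24 h, LcRNA against ANC100 at 48 h and ANC100 against PBS at 48 h. Of all genes, 1.06% passed for PmOMV at 10 h (0.639% lower), 0.282% for ANC100 against PBS at 48 h, 0.154% for PmOMV against LPSinc at 24 h, 0.112% for PmOMV at 24 h, 0.0373% for LcMV at 10 h and 0.00533% for LcMV at 24 h. In the others 0% of all genes passed. Members with an unadjusted p under 0.05 numbered from 0 of 51 (LcRNA and PmRNA at 24 h and LPStrans at 10 h against their siRNA) to 15 of 51 (29.4%, LcRNA against ANC100 at 10 h, where 4.01% of all genes were under it). Since the members come from the same libraries, such a share does not test them as a set. The members' 95% intervals had a median half-width of 0.16 to 0.25 on the log2 scale before any adjustment, and after adjustment over all genes larger differences also did not pass. For ANC100 against PBS at 48 h, the count became 2 without ANC100_48h replicate 2.

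In several of these comparisons most members leaned the same way without passing, and 2 of them are described here. The median of every class was also negative for LPSinc against PBS at 10 h (-0.07 to -0.21) and EfRNA against ANC5 at 24 h (-0.1 to -0.19). The same held at 10 h for EfMV against PBS, PmRNA against ANC2 and PmRNA against LPStrans. At 24 h it held for LPSinc and the siRNA mean against PBS and for LPStrans against ANC2. For PmRNA against LPStrans at 24 h it was positive in every class (0.07 to 0.23), as for ANC100 against PBS at 48 h (0.08 to 0.21). A lean of all classes in the same direction was thus common among these comparisons. In LcMV against PBS at 24 h, 49 of 51 members had a negative log2 fold change (median -0.19, against 50% negative and a median of 0 over all genes), and 14 had an unadjusted p under 0.05 (27.5%, against 3.95% of all genes). In LcRNA against ANC100 at 10 h, 50 of 51 were negative (median -0.13, against 50% of all genes). There the summed level was 5137, 5410 and 5937 CPM in LcRNA (lowest, median and highest of 4 libraries) and 5666, 5755 and 6655 CPM in ANC100 (4 libraries), so that the groups overlapped. LcMV against PBS at 24 h had summed levels of 5176 and 5026 CPM in LcMV against 5989 and 5534 CPM in PBS. A shift of a single library can move most members at once, so these leans do not count the members as independent.

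**Figure D4:**
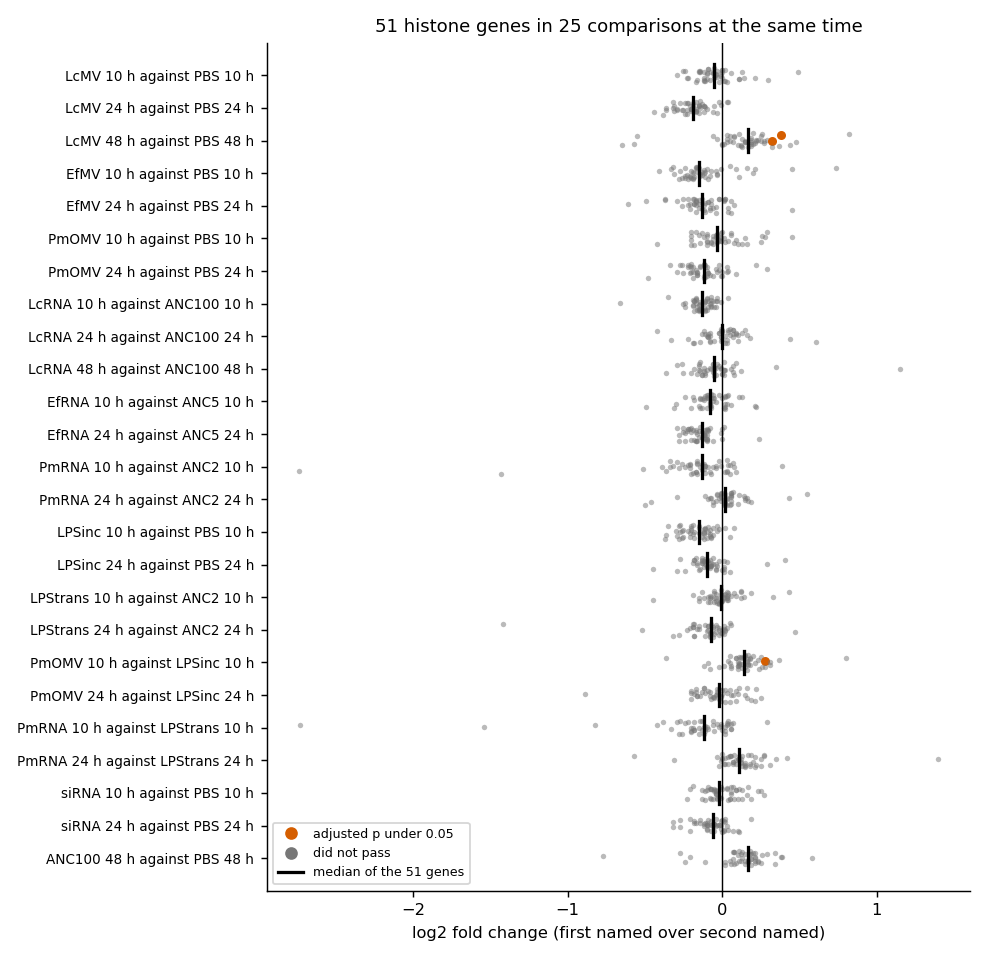
Log2 fold change of the 51 tested members in each comparison of 2 treatments at the same time (1 point per member, vertical bars at the medians, orange where the adjusted p was under 0.05). The medians lie between -0.19 (LcMV against PBS at 24 h) and 0.17 (LcMV against PBS at 48 h), and 3 points in all passed the test.

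Between 24 h and 10 h the members moved little and in both directions. In the mean over the 12 treatments, 16 of 51 members fell and 3 rose (37.3%), where 54.9% of all genes passed, and the median was -0.03. H3C12 fell by 0.23, at 64, 78.6 and 97.5 CPM at 24 h (26 libraries) against 74.6, 91.3 and 120 CPM at 10 h (32 libraries). H2BC18 (chr1:149782689-149812373), an H2B gene, fell by 0.20, at 113, 146 and 187 CPM at 24 h against 125, 172 and 210 CPM at 10 h. The libraries of both times overlapped for both genes. H2AC18 (log2 0.50 ± 0.19), H3C6 (0.19 ± 0.05) and H2AC6 (0.06 ± 0.02) rose. H2AC18 had 0.683, 1.35 and 2.9 CPM at 24 h against 0, 1.16 and 2.46 CPM at 10 h and has no unique window, so that this change rests on few counts. With another scaling of the libraries (RLE), 7 members rose and 13 fell, and with the libraries of every lane 0 rose and 12 fell. In PBS alone 1 member fell, H2BC7 (chr6:26199516-26199988), where 7.15% of all genes passed. H2BC7 had 130 and 116 CPM in PBS at 24 h against 182 and 136 CPM in PBS at 10 h (log2 -0.33 ± 0.10, adjusted p = 0.0311 by edgeR). That count was 3 without PBS_10h replicate 3 and 0 without PBS_10h replicate 2 or either PBS_24h library.

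Replicate number separated the members by chromosome. Replicate 3 against replicate 2, over all treatments and times, gave 8 members higher and 30 lower of 51 (74.5%), where 62.2% of all genes passed, with a median of -0.10. On chromosome 6, 29 of 40 members were lower and 1 was higher (H4C1, log2 0.20 ± 0.05). On chromosome 1, 7 of 10 were higher and 0 lower. H4C16 on chromosome 12 was lower (-0.27 ± 0.04). The labels do not say what a replicate number stands for, so that culture, day, plate and library preparation cannot be told apart.

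The pair at the end of chromosome 1 stood out in this contrast. H2AC25 (chr1:228434777-228457873) had 6.78, 19.6 and 26.5 CPM in replicate 3 (lowest, median and highest of 27 libraries) against 8.84, 13.8 and 17.7 CPM in replicate 2 (28 libraries). It was higher by 0.51 ± 0.05 on the log2 scale. H2BC26, its neighbour in the printed stretch, had 14, 23.4 and 31.7 CPM in replicate 3 against 8.87, 17.5 and 23.7 CPM in replicate 2 and was higher by 0.49 ± 0.05. Each pair of ranges overlapped, and the lowest value of H2AC25 belonged to a library of replicate 3. In the cluster at chr1:149782689-149887965, H2BC18 was higher by 0.28 ± 0.03, H2AC19 by 0.24 ± 0.08 and H3C13 by 0.22 ± 0.05. Among members that were lower, H2BC11 had a log2 fold change of -0.31 ± 0.04, H2BC4 of -0.28 ± 0.02 and H4C4 of -0.27 ± 0.05.

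Other genes near the members moved in part the same way. Within 1000000 bases of the members on chromosome 6, 9 of 46 other genes were higher and 12 lower in replicate 3 (median -0.03, against -0.13 for the 40 members). Around the first chromosome 1 cluster 17 of 33 were higher and 4 lower (median 0.23, against 0.10 for its 8 members), and around H2AC25 and H2BC26 13 of 27 were higher and 3 lower (0.13, against 0.50 for the pair). Around H4C16, 9 of 11 other genes were lower (median -0.40). Over all tested genes the median was -0.06 on chromosome 6 and 0.04 on chromosome 1, and other chromosomes ranged further, with -0.36 on chromosome 13 and 0.29 on chromosome 21. Whether chromosome content differed between the replicates was not tested.

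The share of the members' counts that came from chromosome 1 genes separated replicates 3 and 4 from replicates 2 and 5, a grouping seen in the data. It was 12, 12.8 and 13.4% in replicate 3 (lowest, median and highest of 27 libraries) and 12.9, 13.2 and 13.7% in replicate 4 (6 libraries), against 10.4, 10.7 and 11.4% in replicate 2 (28 libraries) and 10.8, 11 and 11.2% in replicate 5 (5 libraries). Replicates 3 and 4 (33 libraries) therefore lay between 12 and 13.7%, and replicates 2 and 5 (33 libraries) between 10.4 and 11.4%, with no overlap at 10 h, 24 h or 48 h. At 24 h replicates 4 and 5 had 1 library each. At 48 h replicate 5 had 1 library, replicate 3 had 3, and replicate 4 had none. In the lanes set aside the share was 9.77 to 13.6% in the 18 libraries labelled replicate 4 and 10.2 to 13.2% in the 20 labelled replicate 5, so that each label covered both ranges there.

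**Figure D5:**
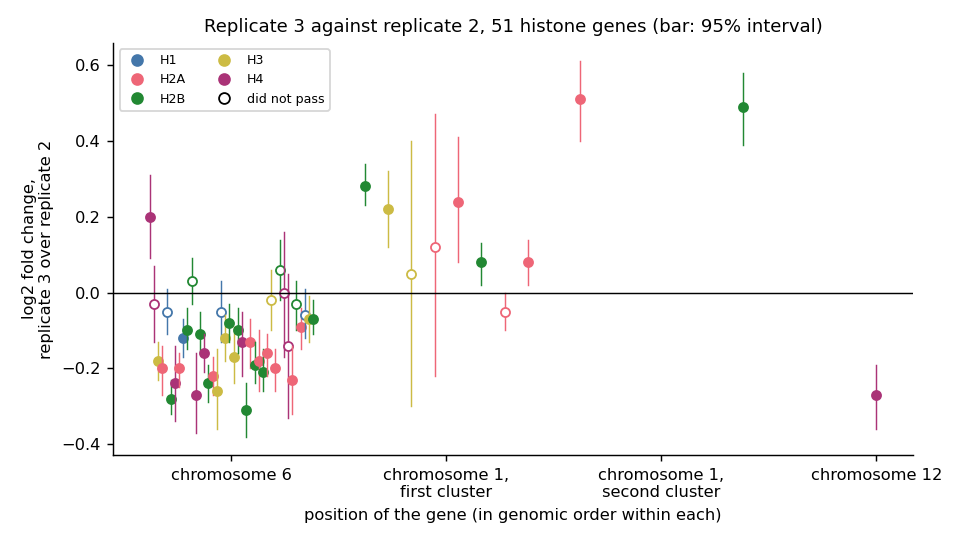
Log2 fold change of the 51 tested members in replicate 3 over replicate 2 with 95% intervals from edgeR, in genomic order along chromosomes 6, 1 and 12, coloured by class and open where the test was not passed. The chromosome 6 members lie mostly below 0 and the chromosome 1 members mostly above, with H2AC25 (0.51) and H2BC26 (0.49) highest.

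Replicates 3 and 2 were also compared within each time, a choice likewise made late. Within 10 h, 33 members were lower and 5 higher in replicate 3 (50% of all genes passed), within 24 h 24 were lower and 5 higher (52.9%), and within 48 h 3 were lower and 9 higher (36.5%). The replicate difference at 24 h was unlike that at 10 h for 5 members of 51, a smaller share than over all genes (14.5% passed): H1-3, H3C8, H3C13 and H4C16 moved towards replicate 3 and H2BC4 away from it. The difference at 48 h was unlike that at 10 h for 10 members and unlike that at 24 h for 6, all on chromosome 6 and all towards replicate 3. Over all genes 16.5% and 6.52% passed, so that the share of members was near that of all genes for 48 h against 10 h. H2BC15 (difference 0.41, adjusted p = 3.15e-05) and H2BC14 (0.45, adjusted p = 0.00564) were among the 10. H2BC26 was higher in replicate 3 at each time, by 0.50 within 10 h, 0.43 within 24 h and 0.68 within 48 h on the log2 scale. H2AC25 was higher by 0.52, 0.46 and 0.58. Neither of these 2 genes differed between times past the test (adjusted p from 0.425 to 0.855 by edgeR).

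Genes that act on histone mRNA and on histones were set beside the members as lists, described by counts only. Of the 11 tested replication-independent histone genes, whose mRNAs are mostly polyadenylated, 7 fell and 0 rose at 48 h against 24 h (median -0.23). Over all genes 23.2% fell and 20.3% rose. H2AZ1 (log2 -0.51 ± 0.07), CENPA, the centromeric H3 variant (-0.44 ± 0.08), H3-3B (-0.37 ± 0.04) and H2AX (-0.25 ± 0.04) fell, and H3-3A (-0.03) did not pass. In replicate 3 against replicate 2 this list went the other way from the chromosome 6 members, with 7 higher and 0 lower (median 0.18), among them H3-3A (0.22 ± 0.03). There 62.2% of all genes passed (31.1% higher and 31.1% lower), so that the share of the list that passed was near that of all genes.

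Of 19 factors for histone mRNA synthesis, processing and decay, 13 fell and 2 rose at 48 h against 24 h (median -0.21). Over all genes 43.5% passed in this comparison. SLBP, which binds the printed stem-loop, fell by 0.29 ± 0.05 (edgeR, adjusted p = 3.35e-06), LSM10 of the U7 particle by 0.66 ± 0.16 and CSTF2, a cleavage factor, by 0.56 ± 0.08. LSM11, the partner of LSM10, rose by 0.32 ± 0.07 and HINFP, an activator of H4 genes, by 0.20 ± 0.05. NPAT, the activator of histone transcription, had a log2 fold change of 0.11 ± 0.05 (adjusted p = 0.0558 by edgeR). At 24 h against 10 h, SLBP fell by 0.15 ± 0.03 and NPAT rose by 0.24 ± 0.03. In replicate 3 against replicate 2, SLBP was lower by a log2 of -0.52 ± 0.03, while NPAT (-0.03) did not pass.

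Of 16 histone chaperones 6 fell and 2 rose at 48 h against 24 h, a share near the 43.5% of all genes that passed. SSRP1 and SUPT16H, the subunits of the FACT complex, fell by 0.38 ± 0.04 and 0.36 ± 0.04, and ATRX rose by 0.33 ± 0.04. Of 40 DNA replication genes 18 fell and 2 rose (median -0.11), with PCNA, the replication clamp, lower by a log2 of -0.22 ± 0.07. In the mean without PBS, 7 of these 40 fell and 2 rose (median -0.08), and within treatments 14 fell in PBS, 3 in LcMV, 3 in LcRNA and 0 in ANC100. Of 21 mitosis genes 20 fell and 0 rose (median -0.30), led by CDC20 (-0.66 ± 0.05) and CCNB1, cyclin B (-0.60 ± 0.04), with the proliferation marker MKI67 at -0.20 ± 0.04. Of 7 genes of cyclin-dependent kinase inhibitors 2 rose, CDKN1A (1.48 ± 0.15) and CDKN2B (1.02 ± 0.25), and CDKN1B fell (-0.11 ± 0.04). At 24 h against 10 h, where 54.9% of all genes passed, 7 DNA replication genes rose and 21 fell, 7 mitosis genes rose and 6 fell, and 5 of the kinase inhibitors rose. In replicate 3 against replicate 2, DNA replication genes were higher for 16 and lower for 6, and mitosis genes higher for 12 and lower for 4, of 40 and 21 genes, where 62.2% of all genes passed. For DNA replication genes this share was below that of all genes. The part of these genes in the levels of the members was not tested.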

How the data were processed

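Total RNA of Caco-2 cells was depleted of ribosomal RNA and sequenced as paired reads of 100 bases on a DNBSEQ-G400. According to the methods, the authors aligned reads with STAR to GRCh38, ran the duplicate marking of sambamba, and counted primary alignments with a mapping quality of at least 10 per gene with featureCounts. The methods describe the sambamba step as deduplication. The listed counting options do not say whether marked duplicates were left out, which would lower short, highly expressed genes most. No strand setting is stated, so a gene and an antisense partner may not be separable. The deposited values are raw counts per gene for libraries of 28 groups, 66 of them in the main reading and 39 set aside, with no normalization. Every column was mapped to a sample (0 columns of no sample), and no 2 libraries were identical. Reads that fit several places were not counted, which lowers near-identical copies.

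The members and all gene lists were chosen with earlier results of these data known. Of 63241 gene IDs, 62030 matched the reference annotation exactly and 62666 without the version. Libraries from lanes 2 to 4 of flow cell 1 (39, of which 38 carry replicate number 4 or 5) made up those set aside. Most of them lay nearest to libraries of another labelled time, over the 1500 genes most variable among the other 66.

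Genes were filtered with filterByExpr and tested with edgeR 4.0.16 (quasi-likelihood, TMM scaling, trended dispersion, biological coefficient of variation 0.06) in R 4.3.3 with limma 3.58.1. All 66 libraries entered 1 two-sided fit with the 28 groups and replicate number as an additive term. Benjamini-Hochberg adjustment covered all 18775 tested genes, with a threshold of 0.05. Levels are counts per 1000000 of the TMM-scaled library size, errors of fold changes are standard errors, and intervals are 95%. The main edgeR fit and test were checked on simulated counts, and the alternative fits were not.

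Replicate numbers are only numbers in the labels. In 22 comparisons of groups sharing at least 2 numbers, deviations of same-numbered libraries correlated at 0.201 to 0.691 (median 0.417), over 0.1 in all 22. Most of these comparisons had only 2 pairs, which mirror each other, so the pairing comes from the data and not from the design.

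Every member could be named. Per-library values were given for highly expressed members of each class and for members with the strongest changes past the threshold, and listed genes were named among the 5 strongest on either side or as well known regulators. Alternatives were DESeq2 1.42.0 with the replicate term, RLE or total-count scaling, no filter beyond 10 counts, no replicate term, a replicate term within each time, flow cell and lane as a further term, the libraries of every lane without the replicate term, leaving out libraries under 2000000 counts, and leaving out each library in turn. Results for a few listed genes are not reported here.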

Additional observations from a re-analysis of the deposited data

Results flagged for a closer look

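In 2 groups of 4 libraries, the library of replicate 2 stood apart from the other 3, by a gap larger than Dixon's critical value for 4 values at 95%. In ANC100 at 10 h, replicate 2 had a summed level of 6655 CPM, against 5702, 5809 and 5666 CPM in replicates 3, 4 and 5. Its H2A genes summed to 1298 CPM, against 1120, 1122 and 1123 CPM. H2BC12, an H2B gene, had 250 CPM there, against 196, 202 and 204 CPM, and H3C2, an H3 gene, had 366 CPM, against 286, 297 and 288 CPM. In LcRNA at 10 h, the H3 genes summed to 981 CPM in replicate 2, against 826, 805 and 821 CPM. In all, 32 sets of 4 values were examined, of which chance alone would flag about 1 in 20, and these sets share libraries.

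The libraries labelled 48 h in the lanes set aside had a summed level of 5260 CPM, which was above that of the other libraries at 48 h (4470 CPM on the same scaling).

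The difference between replicate 3 and replicate 2 was compared between times. By edgeR, the test of that change was passed by 5 of 51 members between 24 h and 10 h (14.5% of all genes), by 10 between 48 h and 10 h (16.5% of all genes) and by 6 between 48 h and 24 h (6.52% of all genes). The members' share was below that of all genes in the first of these and near it in the second.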

How the results depend on the processing

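The fall of members at 48 h against 24 h (39 genes) held at 31 to 38 genes under the other scalings, tests, filters, blocks and the lane term, at 30 without PBS, and at 1 with the libraries of every lane and no replicate block. Without any 1 library it ranged from 35 to 42. In PBS alone (38) it was 22 with no replicate block, 0 with the libraries of every lane, and 24 to 31 without any 1 library. The 24 h against 10 h count (19) was 12 with the libraries of every lane and 16 to 22 without any 1 library. The count for replicate 3 against replicate 2 (38) was 12 within 48 h and 37 to 40 without any 1 library, and it could not be fitted without a replicate term.

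The counts of 1 or 2 members depended on the settings. For LcMV against PBS at 48 h (2), RLE scaling gave 1, and 0 came with the libraries of every lane, with no replicate block, with the replicate block within each time, with the lane term, and against ANC100 or LcRNA. Without any 1 library it was 0 to 1. For PmOMV against LPSinc at 10 h (1), the libraries of every lane, RLE scaling, total-count scaling and no replicate block gave 0, and the replicate block within each time gave 5. Without any 1 library it was 0. For PBS at 24 h against 10 h (1), the same settings gave 0 and 2, and 0 to 3 without any 1 library. For ANC100 against PBS at 48 h (0) the range was 0 to 2. The cause was not tested.

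Among single log2 fold changes, H2AC6 at 24 h against 10 h was 0 with the libraries of every lane, and H1-4 in LcMV at 48 h was -0.01 against ANC100. Of the 30 members lower in replicate 3 than in replicate 2, 10 had a positive value within 48 h, namely 0.1 (H2BC5, H2AC12), 0.08 (H4C8, H2BC17, H2BC7), 0.03 (H1-4), 0.12 (H2AC15), 0.06 (H2AC14, H2BC10) and 0.07 (H2AC16). The mean summed level at 48 h was 4863 CPM with the libraries of every lane, against 4494 CPM. Over all genes, 476 passed at 48 h against 24 h with the libraries of every lane, in place of 8162. With 2 libraries in most groups, a lone library left in a group was assumed to vary like the others.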
